A study of Mus musculus with 2 samples.

Results

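Collagen genes and 5 of their companions in the extracellular matrix were followed through the cells of Hepa1-6 tumours, which grow from a mouse hepatoma cell line. The set was every gene symbol of the form Col, a number, a and a number (44 collagen chains), together with Dcn, Bgn, Lum, Fn1 and Sparc. That gave 49 genes of the 32285 in the deposited tables, and all 49 had at least 1 UMI (a unique molecular identifier, the tag that marks 1 captured RNA molecule) in some cell barcode. The study made 1 droplet single-cell RNA library from control tumours and 1 from tumours of mice given CD147-LYTACs, lysosome-targeting chimaeras against the surface protein CD147. The treated mice had 4 doses of 40 mg/kg, spaced 3 days apart, by a route that the labels leave undecided between intraperitoneal and intravenous. Tumours of both groups were collected on day 12. Cells without and with CD45, the surface protein of leukocytes, were sorted and mixed again at 1 part to 3 parts, so the shares of stromal and immune cells in a library are set in part by the sort. The number of tumours per library, the mouse strain and the control injection are not given in the labels. Each group was 1 library, so no difference below has a replicate check and no test or p-value is given. All intervals are 95% intervals for the error of counting molecules and leave out variation among animals and among preparations.

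Collagens are built from 3 polypeptide chains wound into a triple helix. Fibrillar collagens such as types I, III and V form the cables of connective tissue, type IV forms the sheet-like network of basement membranes, and other types decorate fibrils or link them to cells. Decorin (Dcn), lumican (Lum) and biglycan (Bgn) are small leucine-rich proteoglycans that bind collagen fibrils. Fibronectin (Fn1) is the adhesive glycoprotein that cells assemble into fibrils through integrins, and SPARC (osteonectin) is a collagen-binding matricellular protein. In liver tumours, fibroblasts derived from stellate cells or portal tissue are the known producers of fibrillar collagen, and liver parenchymal cells are the known source of plasma fibronectin.

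The control library held 8150 barcodes with 143495332 UMIs and the treated library 9219 barcodes with 149812326 UMIs, of which 6689 and 7641 were kept. The libraries shared 24 barcode sequences, 19 of them kept in both. Cells were sorted into classes by summed marker genes that include no collagen or companion gene. Hepatoma cells numbered 1874 in the control and 2057 in the treated library (median 47203 and 43936 UMIs). Immune cells numbered 4638 and 5400. Fibroblast or mural cells were rare, at 21 and 36 cells (median 14132 and 14472 UMIs), and 1 cell in each library had more mural than fibroblast markers. In both libraries 19 of 20 fibroblast markers were found in at least 10% of these cells. The same markers set the gate, so this is no separate check of the label. Endothelial cells were nearly absent, with 1 control and 0 treated barcodes carrying at least 5 of 12 endothelial markers outside the hepatoma and immune gates. Another 86 and 70 barcodes passed more than 1 gate and were set aside as mixed.

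Most UMIs of the type I, III and V collagen chains lay in the few fibroblasts. This did not hold for every fibrillar chain. Most Col27a1, Col2a1 and Col11a2 UMIs lay in hepatoma cells in both libraries. Levels are given as UMIs per 1000000 UMIs of the class (CPM), from UMIs summed over its cells, and they were not corrected for transcript length, so levels of different genes are not ranked. Col3a1, the chain of type III collagen, stood at 8308 CPM (7993 to 8631) in control and 8296 CPM (8061 to 8536) in treated fibroblasts. In hepatoma cells it stood at 0.191 CPM (0.113 to 0.302) and 0.221 CPM (0.139 to 0.335), and in T or NK cells at 0.295 and 0.449 CPM. Hepatoma and T or NK cells thus held Col3a1 at similar trace levels, and every one of the 57 fibroblasts had at least 1 UMI of it. Col1a1 and Col1a2, the 2 chains of type I collagen, stood at 5016 and 5522 CPM in control fibroblasts and at 5822 and 6002 CPM in treated ones. In hepatoma cells Col1a2 was at 0.0849 CPM (8 UMIs) and 0.302 CPM (30 UMIs), with no cell above 1 UMI.

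Fibroblasts supplied 0.243% of all UMIs in the kept control barcodes and 0.419% in the treated ones. They nevertheless held 89.4% and 94.4% of all Col3a1 UMIs, 88.5% and 93.6% of Col1a1, and 87.4% and 93.6% of Col1a2. The mixed barcodes held 9.59% and 4.81% of Col3a1 and 7.97% and 3.22% of Col1a1. Hepatoma cells held 0.612% and 0.439% of Col3a1 UMIs although they supplied 72.2% and 73.2% of all UMIs. For other genes, among them Dcn, Fn1, Sparc, Col4a1 and Col8a1, the order was the opposite. Hepatoma cells held 91.9% and 91.5% of the Dcn UMIs, 95.6% and 93.0% of Fn1, 80.8% and 75.3% of Sparc, 94.7% and 93.7% of Col4a1, and 98.2% and 95.9% of Col8a1. Per UMI Dcn, Fn1, Sparc and Col4a1 were still higher in fibroblasts than in hepatoma cells. For Col8a1 that order rested on single cells.

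**Figure D1:**
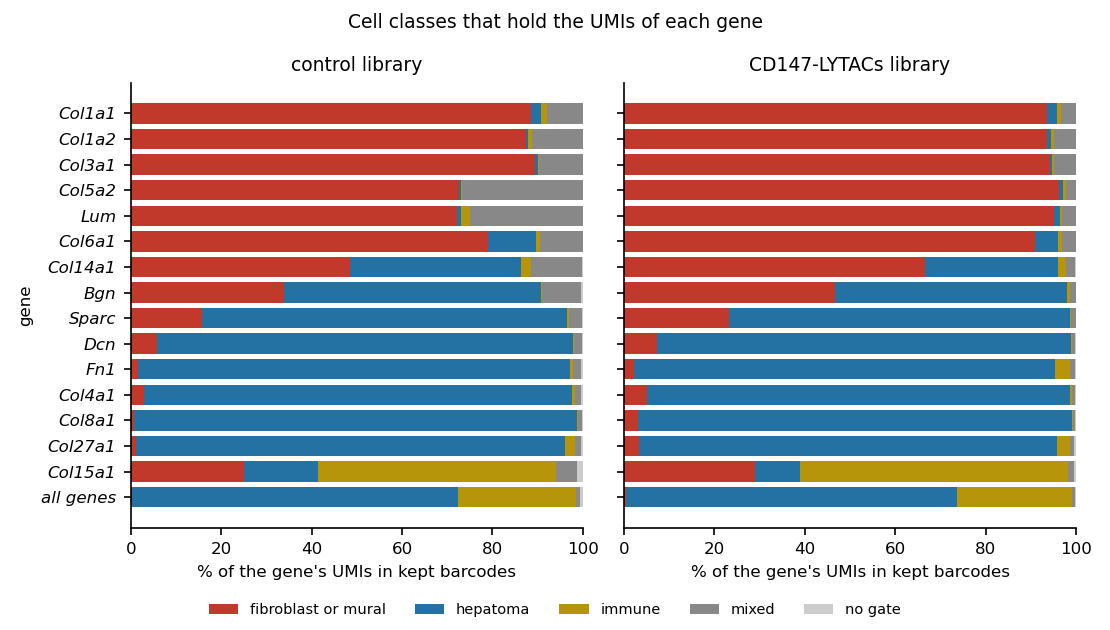
Share of each gene's UMIs (x axis, % of UMIs in kept barcodes) held by fibroblast or mural, hepatoma, immune, mixed and ungated barcodes, for 15 matrix genes and for all genes together, control library left and CD147-LYTACs library right. Type I and III collagen UMIs lay in fibroblasts, 87.4% to 94.4%, whereas Dcn, Fn1, Col4a1 and Col8a1 UMIs lay in hepatoma cells, 91.5% to 98.2%.

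The starting sequence of 2 genes on either side of that divide is shown for orientation. Each is the stretch of 120 bases just before the RefSeq start site on GRCm38.p6, 5′ to 3′ on the gene's strand, and lies outside annotated exons. Capitals mark matches to 3 promoter motifs that were searched on both strands. The first motif was TATAAA, the core of the classical box near a start site. The next was CCAAT, which is found in many promoters. The last was GGGCGG, known as the GC box. Col3a1 lies on the plus strand of chromosome 1 (chr1:45311418-45311537) and Col8a1 on the minus strand of chromosome 16 (chr16:57754738-57754857).
Col3a1: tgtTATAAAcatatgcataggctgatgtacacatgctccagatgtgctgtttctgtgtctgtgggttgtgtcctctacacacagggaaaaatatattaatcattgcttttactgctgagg
Col8a1: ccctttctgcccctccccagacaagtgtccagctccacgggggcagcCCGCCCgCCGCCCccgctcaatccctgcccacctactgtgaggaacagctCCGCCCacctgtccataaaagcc
The Col3a1 stretch held 1 TATAAA and no GC box, and the Col8a1 stretch held 3 GC boxes and no TATAAA. The Col3a1 TATAAA lay at the end of the stretch far from the start site. RefSeq promoters were found for 37 of the 49 genes, 40 promoters in all, and a gene was counted if any of its promoters held the motif. Within the 250 bases before the start, TATAAA occurred in 5 of these 37 genes against 12.4% of all 32851 promoters in the table. CCAAT occurred in 13 against 33.9%, and GGGCGG in 22 against 32.7%. These are matches of letters and not sites of binding.

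Among fibroblasts, type V collagen, which joins type I fibrils, was present through Col5a1 (480 and 591 CPM), Col5a2 (1071 and 983 CPM) and Col5a3 (240 and 391 CPM). Type VI collagen, which makes beaded microfibrils around cells, was present through Col6a1 (502 and 562 CPM), Col6a2 (439 and 463 CPM) and Col6a3 (828 and 479 CPM). Col12a1 and Col14a1, whose chains sit on the surface of fibrils (the FACIT group), stood at 625 and 752 CPM in the control and at 237 and 565 CPM in the treated library. Basement membrane genes were present too, with Col4a1 at 512 and 551 CPM, Col4a2 at 215 and 219 CPM, Col15a1 at 120 and 123 CPM and Col18a1 at 164 and 86.0 CPM. The proteoglycans Dcn (4217 and 4600 CPM), Bgn (1999.6 and 1897 CPM) and Lum (667 and 949.5 CPM), with Sparc (6817 and 6441 CPM) and Fn1 (2088 and 1560 CPM), completed the set. All collagen chains together made up 2.53% of control and 2.62% of treated fibroblast UMIs. Of these collagen UMIs 81.9% (81.0 to 82.7) and 85.1% (84.5 to 85.7) were fibrillar, 7.20% and 5.84% type VI, 6.06% and 3.48% FACIT, and 3.55% and 4.25% network-forming (types IV, VIII and X). In all, 37 of the 49 genes had a UMI in fibroblasts, and 32 reached 10 CPM in at least 1 library. Among those at lower levels were the minor fibrillar chains Col27a1 (53.7 and 94.8 CPM), Col24a1 (41.1 and 91.3 CPM) and Col11a1 (12.6 and 19.3 CPM), and the FACIT chain Col16a1 (133 and 98.3 CPM). All Col11a1 UMIs lay in 1 cell of each library (4 control and 11 treated UMIs). Single cells also held 11 of the 17 control Col27a1 UMIs and 26 of the 52 treated Col24a1 UMIs. The transmembrane chain Col23a1 stood at 31.6 and 104 CPM, with 34 of its 59 treated UMIs in 1 cell. Col6a5, Col6a6, Col8a2, Col19a1, Col20a1 and Col28a1 had at most 19 UMIs each over both libraries. The 12 genes with no fibroblast UMI included the cartilage chains Col2a1, Col9a1, Col9a2 and Col11a2 and the type IV chains Col4a3, Col4a4 and Col4a6.

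A gene was counted as higher or lower where the class held at least 100 UMIs of it over both libraries, the treated and control CPM differed by at least 1.5-fold and the interval of the ratio excluded no difference. In fibroblasts 21 of the 49 genes had that many UMIs. Of these 2 were higher in the treated library, against 12.3% of all 1561 genes with as many UMIs, and 3 were lower, against 14.9%. Both counts lie near these backgrounds. The median log2 ratio of the 21 genes was 0.03, against 0.00 for all 1561. Col12a1 was lower by 1.40 on the log2 scale (-1.73 to -1.08) and had UMIs in 13 of 21 control and 21 of 36 treated cells. Its medians per cell were nearly equal, at 144 and 149 CPM, and the top control cell held 33.3% of its control UMIs. After thinning each cell to 1000 UMIs, 8 of 21 and 5 of 36 cells held Col12a1. Without the single cell with most Col12a1 UMIs in each library its log2 ratio was -1.19. Col6a3 was lower (-0.79, -1.04 to -0.54), but its log2 ratio was -0.51, short of 1.5-fold, when classes were taken from clusters of cells, and -0.56 as a mean over cells. Col18a1, the source of endostatin, was lower in summed UMIs (-0.93, -1.53 to -0.34). More of the treated cells held it, 18 of 36 against 7 of 21 control cells, with medians per cell of 16.2 and 0 CPM. The top control cell held 22 of 52 Col18a1 UMIs and the top treated cell 19 of 49. Without these cells the log2 ratio was -0.91. Col5a3 was higher (0.71, 0.32 to 1.10), yet the mean over cells of each cell's CPM gave 0.25. The Col5a3 ratio also fell short of 1.5-fold with 1.6% per 1000 barcodes removed (0.55) and without mural cells (0.58). Lum lay higher (log2 ratio 0.51, 0.28 to 0.75) and Fn1 lower (-0.42, -0.57 to -0.27) in the treated library without reaching 1.5-fold. Lum passed that fold with 1.6% per 1000 barcodes removed as doublets (0.60) and as a mean over cells (0.65). Fn1 passed it with gate cuts 1.5 times as high (-0.63), but as a mean over cells its log2 ratio was -0.0021. Type I collagen lay within 1.5-fold, with a log2 ratio of 0.21 (0.13 to 0.30) for Col1a1 and 0.12 (0.04 to 0.20) for Col1a2. Without the top cell of each library these ratios were 0.46 and 0.21. Over the settings tried they ranged from 0.02 to 0.52 for Col1a1 and from -0.13 to 0.52 for Col1a2. The medians per cell of Col1a2 were 1962 CPM in control and 4003 CPM in treated fibroblasts. Dcn (0.13), Sparc (-0.08) and Bgn (-0.08) lay within 1.5-fold as well, but Bgn passed it with gate cuts lowered to 0.67 times (-0.65) and turned its sign as a mean over cells (0.42). The signs of the small Sparc and Col3a1 ratios also turned in some settings.

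Col8a1, a chain of the short network collagen type VIII, was also counted as higher in treated fibroblasts (155 and 312 CPM, log2 ratio 1.01, 0.55 to 1.5). Only 5 of 21 control and 9 of 36 treated cells held any, and 1 treated cell held 134 of the 178 UMIs. Without the top cell of each library the log2 ratio was 0.46, and with gate cuts lowered to 0.67 times it was -1.58. The Col8a1 difference among fibroblasts therefore rested on single cells. Fibroblasts differed widely among themselves in the other genes as well. Col1a1 ranged from 79.8 to 15659 CPM over control cells, with a median of 2125, and from 283 to 19594 CPM over treated cells, with a median of 3510. Col3a1 had medians of 4658 and 7423 CPM per cell. The top control cell alone held 29.7% of the Col1a1 UMIs and 26.3% of the Col3a1 UMIs of its class, and the top treated cell 12.6% and 12.7%. In UMIs summed over the class there were 0.908 and 0.970 Col1a1 UMIs per Col1a2 UMI. The relation of these 2 genes within single cells was not examined.

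**Figure D2:**
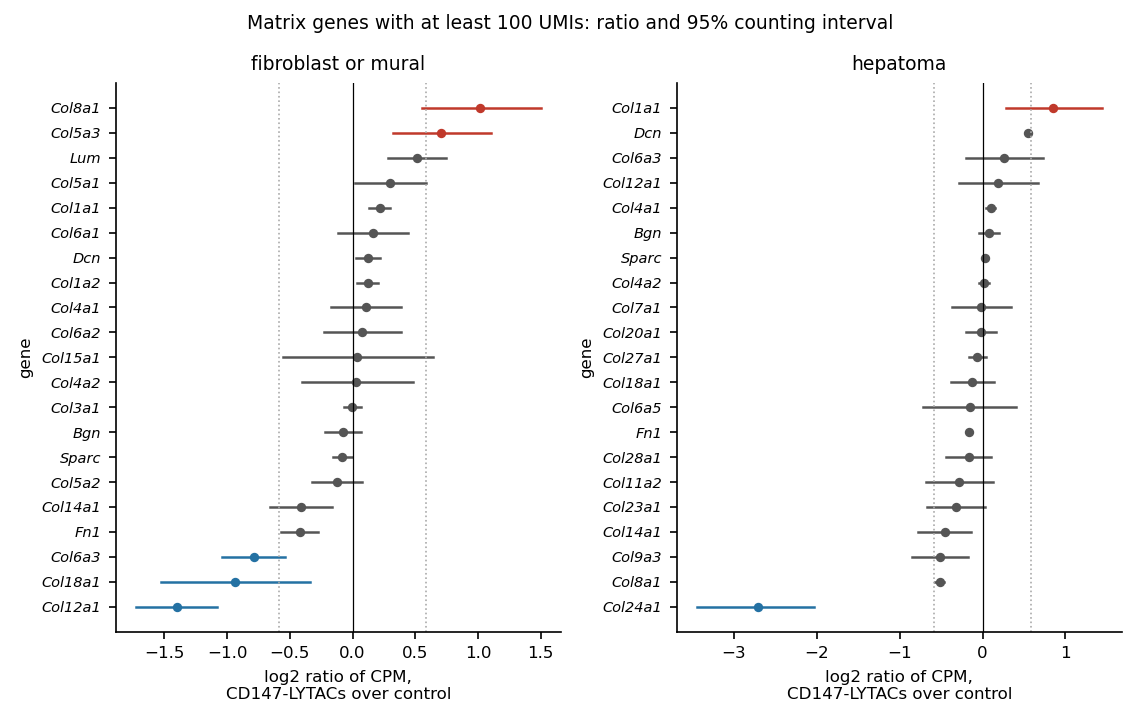
Log2 ratio of CPM, CD147-LYTACs over control (x axis, points), with 95% counting intervals (lines), for the genes with at least 100 UMIs in fibroblast or mural cells (left) and hepatoma cells (right). Dotted lines mark 1.5-fold, red and blue genes were counted as higher and lower; in fibroblasts these were 2 and 3 of 21 genes and in hepatoma cells 1 and 1 of 21.

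Hepatoma cells carried a different mix of matrix genes. All 49 genes had a UMI in this class, which holds far more UMIs, but only 8 reached 10 CPM in a library. These were Fn1, Dcn, Sparc, Col8a1, Col4a1, Col4a2, Col27a1 and Bgn. In the small fibroblast class 3 UMIs already made 9.48 CPM in the control and 5.27 CPM in the treated library. The numbers of genes at 10 CPM are therefore not compared between the classes. Collagen chains made up 0.0218% of control and 0.0197% of treated hepatoma UMIs. Network-forming collagens took 81.0% (80.4 to 81.5) and 80.4% (79.9 to 81.0) of these collagen UMIs, and fibrillar chains 9.32% and 9.71%, most of them Col27a1, a minor fibrillar chain of cartilage (16.2 and 15.6 CPM). The share of network-forming chains was thus higher in hepatoma cells than in fibroblasts in both libraries, beyond the counting intervals. Fibroblast levels exceeded hepatoma levels 58.0-fold (control) and 53.8-fold (treated) for Sparc, 18.8-fold and 14.1-fold for Dcn, 9.19-fold and 9.23-fold for Col4a1, 5.13-fold and 4.29-fold for Fn1, and 2.0-fold and 5.78-fold for Col8a1. The Col8a1 folds rested on 1 fibroblast in each library, which held 32 of 49 control and 134 of 178 treated UMIs. Without the top cell of each class and library Col8a1 stood at 59.3 and 81.7 CPM in fibroblasts and at 76.0 and 52.8 CPM in hepatoma cells, so the order turned in the control.

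Free RNA in the droplets sets a floor for such levels. T or NK cells (median 6152 and 6177 UMIs), which should not make these genes, held most of the hepatoma genes at a small share of the hepatoma level. For Krt8, a keratin of the hepatoma cells, that share was 1.26% in the control and 1.14% in the treated library. For Dcn it was 0.756% and 0.590%, for Sparc 1.10% and 1.01%, for Col4a1 1.19% and 0.978%, and for Col8a1 0.238% and 0.332%. These shares lie close to or below that of Krt8, while those of Bgn (1.30% and 3.01%) and Col27a1 (3.63% and 6.35%) lie above it. The share of Fn1 was 1.10% in the control and 2.35% in the treated library. Col20a1 stood in T or NK cells at 52.2% and 54.4% of its hepatoma level (5.44 and 5.36 CPM), and Col23a1 at 1.03 and 1.35 CPM against 1.58 and 1.27 CPM in hepatoma cells. The hepatoma levels of both genes are not set apart from background here.

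**Figure D3:**
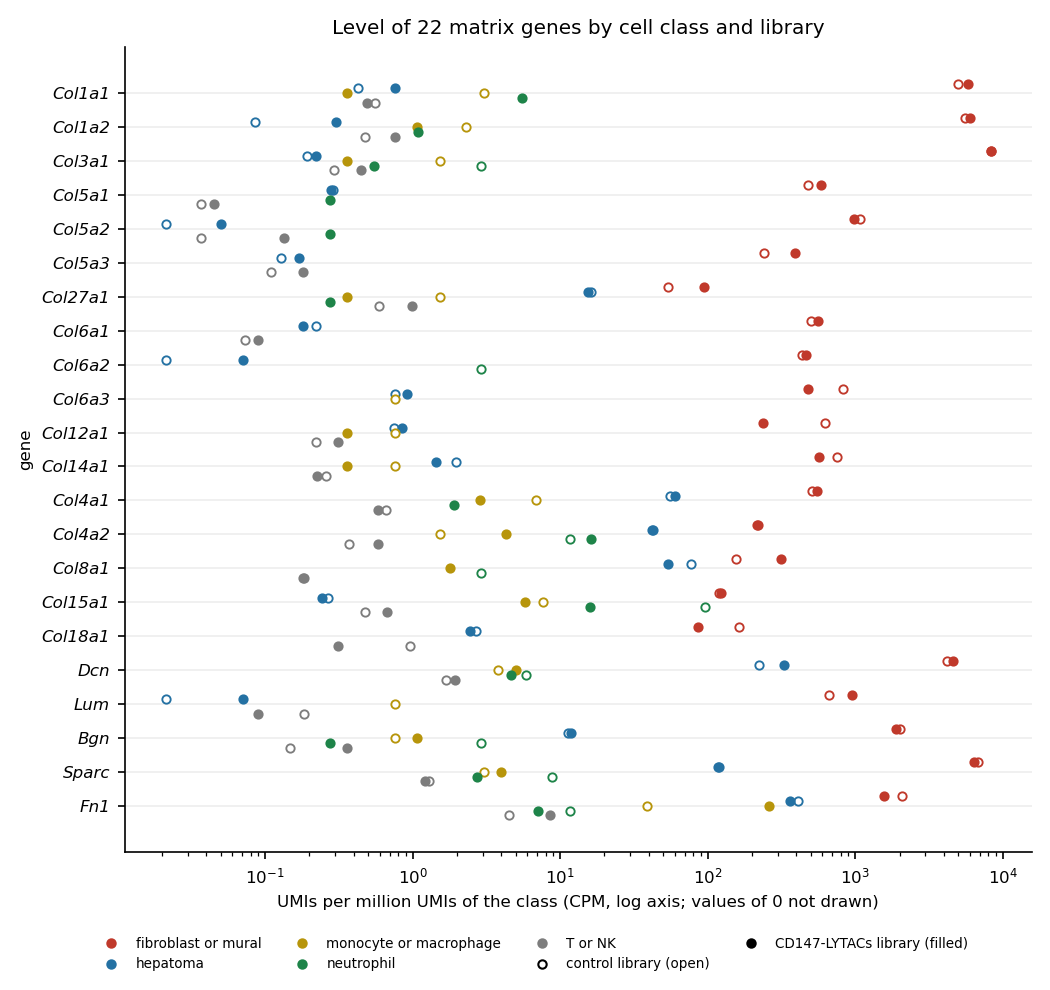
CPM (x axis, log scale) of 22 matrix genes in fibroblast or mural, hepatoma, monocyte or macrophage, neutrophil and T or NK cells, open circles for the control and filled circles for the CD147-LYTACs library. Col1a1, Col1a2 and Col3a1 lie at 5016 CPM or above in fibroblasts and below 10 CPM in every other class shown, while Dcn, Sparc, Fn1, Col4a1, Col4a2 and Col8a1 lie between 42.1 and 407 CPM in hepatoma cells.

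Dcn, which encodes the collagen-binding proteoglycan decorin and lies on chromosome 10 (97479609 to 97518143, plus strand, GRCm38), differed most among the abundant hepatoma genes. It stood at 224 CPM (221 to 227) in the control and 327 CPM (324 to 331) in the treated library, a log2 ratio of 0.55 (0.52 to 0.57) or 1.46-fold. The treated library was the higher one, and the ratio fell just short of the 1.5-fold rule. The log2 ratio stayed between 0.54 and 0.57 under the 10 alternative settings tried. After thinning to 1000 UMIs per cell, 15.5% of control (13.9 to 17.3) and 21.5% of treated hepatoma cells (19.8 to 23.4) held Dcn, beside 0.195% and 0.143% of T or NK cells. This left out 39 control and 27 treated hepatoma cells, and without thinning 75.1% and 81.7% of hepatoma cells held Dcn. Its downstream neighbour Lum, 46984 bases away in the same direction and encoding the related proteoglycan lumican, had only 2 and 7 UMIs in all hepatoma cells. In fibroblasts both neighbours were abundant, so the pair was shared there and split in hepatoma cells.

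At a fixed depth of 10000 UMIs, 43.3% of control and 32.2% of treated cells had no Dcn UMI. Cells with 2 or 3 Dcn UMIs made up 17.5% and 19.5%, those with 4 to 7 UMIs 14.1% and 19.7%, those with 8 to 15 UMIs 5.11% and 8.97%, and those with 16 or more 1.03% and 2.44%. Treated cells were thus the more frequent in every range from 2 UMIs upward. The variance of Dcn over cells was 5.37 and 6.10 times its mean, against 1.95 and 1.94 times for Sparc, 4.49 and 3.71 times for Col8a1 and 5.77 and 6.76 times for the more abundant Krt8. This measure did not follow the mean alone. The mean of Fn1 was higher than that of Dcn (4.07 and 3.71 against 2.06 and 3.09 UMIs per cell). The variance of Fn1 was 3.74 and 3.54 times its mean. By this measure Dcn thus lay above Fn1 and below Krt8 in both libraries. The 10% of cells with most Dcn held 47.9% and 42.7% of its UMIs, against 31.4% and 32.1% for Fn1. Across cells Dcn and Sparc counts correlated weakly (Pearson r 0.19 over 1742 control and 0.26 over 1928 treated cells, which share a library and a thinned depth). Dcn and Fn1 counts hardly did (0.05 and 0.04).

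**Figure D4:**
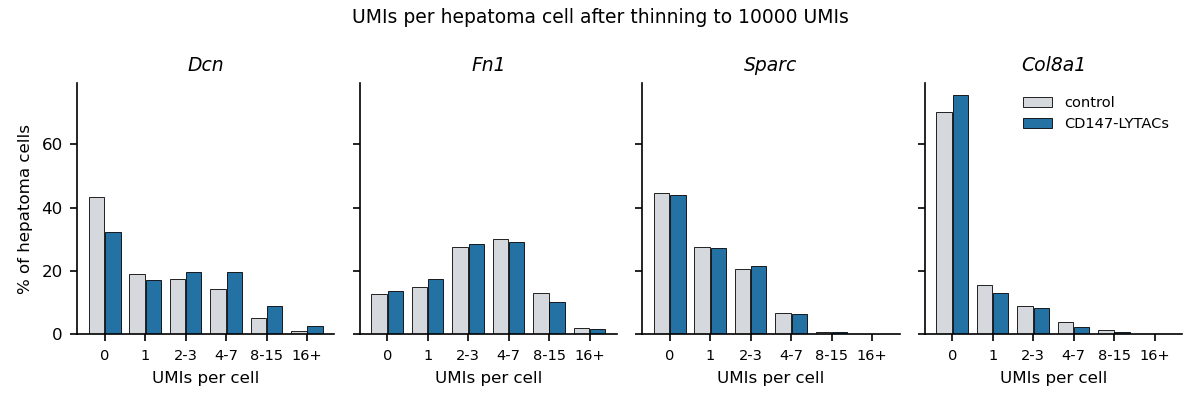
Percent of hepatoma cells (y axis) by UMIs per cell (x axis) of Dcn, Fn1, Sparc and Col8a1 after each cell was thinned to 10000 UMIs, control in grey (1742 cells) and CD147-LYTACs in blue (1928 cells). Fewer treated cells had no Dcn UMI (32.2% against 43.3%) and more had no Col8a1 UMI (75.6% against 70.1%), whereas the Sparc bars nearly coincide.

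Col8a1 lay in the other direction. It stood at 77.4 CPM (75.6 to 79.2) in control and 54.0 CPM (52.6 to 55.5) in treated hepatoma cells, a log2 ratio of -0.52 (-0.57 to -0.47), again short of 1.5-fold. At 1000 UMIs per cell 6.38% of control (5.30 to 7.59) and 4.14% of treated cells (3.31 to 5.10) held it, beside 0 of 3582 and 1 of 2795 T or NK cells. At this depth the 0 of 3582 allows a share of up to 0.0838%, and without thinning 5 of 3625 and 4 of 2833 T or NK cells held Col8a1. The 10% of cells with most Col8a1 held 66.7% and 69.5% of its UMIs, at a mean of 0.730 and 0.518 UMIs per cell. This share did not follow the mean alone. Col4a2, with a lower mean (0.412 and 0.414), had 54.5% and 54.3%, and Col27a1 (0.147 and 0.141) had 89.1% and 93.4%. Fn1, at 407 CPM (403 to 411) and 363 CPM (360 to 367), was slightly lower in the treated library (-0.16, -0.18 to -0.14). Sparc (117 and 120 CPM, log2 ratio 0.03, -0.01 to 0.06), Col4a2 (42.1 and 42.7 CPM), Bgn (11.3 and 11.9 CPM) and Col27a1 did not differ beyond counting error.

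The type IV genes Col4a1 and Col4a2 lie head to head on chromosome 8, and their annotated spans (11198423 to 11312826, minus strand, and 11312805 to 11449287, plus strand) overlap by 22 bases. Hepatoma cells held Col4a1 at 55.7 and 59.7 CPM (log2 ratio 0.10, 0.05 to 0.15). There were 1.32 and 1.40 Col4a1 UMIs per Col4a2 UMI in hepatoma cells and 2.38 and 2.51 in fibroblasts. Col4a1 was 56.9% (55.9 to 57.9) and 58.3% (57.3 to 59.3) of the pair's UMIs in hepatoma cells, and 70.4% (64.1 to 76.3) and 71.5% (67.1 to 75.7) in fibroblasts. The classes thus differed in the same way in both libraries, beyond the counting intervals. Across hepatoma cells at 10000 UMIs the pair's counts correlated with r 0.21 and 0.25, and 983 of 1874 control and 1101 of 2057 treated cells held both genes.

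A second type IV pair, Col4a5 and Col4a6, lies head to head on the X chromosome with 1308 bases between the genes. In hepatoma cells Col4a5 had 18 control and 69 treated UMIs, and Col4a6 had 6 and 41. Both were higher in the treated library but below 100 UMIs, and both came from very few cells. Col4a5 was held by 7 control and 16 treated cells and Col4a6 by 4 and 11 of all 3931. Of the 23 cells with Col4a5 and the 15 with Col4a6, 10 held both. The pair thus occurred together in a handful of cells and was chosen for description after its values were seen. Bases before their start sites are shown in the same way as above, from chrX:141475265-141475384 (plus strand) and chrX:141474077-141474196 (minus strand). The Col4a5 stretch ends 34 bases before the RefSeq start, where an annotated exon begins.
Col4a5: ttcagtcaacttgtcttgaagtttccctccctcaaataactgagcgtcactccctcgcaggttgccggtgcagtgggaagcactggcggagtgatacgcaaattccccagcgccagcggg
Col4a6: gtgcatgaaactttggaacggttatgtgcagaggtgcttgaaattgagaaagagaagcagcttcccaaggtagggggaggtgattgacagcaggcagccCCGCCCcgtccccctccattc
The Col4a6 stretch held 1 GC box, and the Col4a5 stretch held none of the 3 motifs.

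Of the 49 genes 21 had at least 100 UMIs in hepatoma cells. Of these 1 was counted as higher in the treated library, against 1.52% of all 13650 genes, and 1 as lower, against 2.15%. Their median log2 ratio was -0.06, against -0.02 for all genes tested. The lower one was Col24a1, a minor fibrillar chain, with 130 control and 21 treated UMIs (-2.71, -3.45 to -2.04). A single control cell held 99 of the 130 UMIs. Without the top cell of each library the log2 ratio was -1.71, and 0.961% of control and 0.438% of treated cells held any. The higher one was Col1a1, with 40 and 76 UMIs (0.425 and 0.765 CPM, log2 ratio 0.85). These levels are close to those of T or NK cells (0.553 and 0.494 CPM), and with gate cuts 1.5 times as high the log2 ratio was -0.23. The share of UMIs from fibroblasts was also higher in the treated library, and its part in this difference was not tested.

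The other 11 hepatoma genes with at least 100 UMIs all lay below 3 CPM apart from Col20a1. Among them Col14a1 (1.97 and 1.44 CPM, log2 ratio -0.46, -0.78 to -0.13) and Col9a3 (1.84 and 1.29 CPM, -0.51, -0.85 to -0.17) had intervals below 0 without reaching 1.5-fold. Col18a1 (2.68 and 2.46 CPM), Col28a1 (2.49 and 2.22 CPM), Col7a1, the anchoring fibril chain of skin (1.41 and 1.40 CPM), Col23a1, a transmembrane chain (1.58 and 1.27 CPM), and Col11a2 (1.2 and 0.986 CPM) had intervals that included no difference. So did Col6a3, Col12a1, Col6a5 and Col20a1.

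Immune cells held little collagen, and the main matrix gene in them was Fn1 in monocytes or macrophages. This subset had 182 control and 457 treated cells. Fn1 lies on the minus strand of chromosome 1 (71585520 to 71653200, GRCm38) and overlaps Apol7d on the other strand. The labels do not state whether the counting used strand, which also bears on other genes that overlap a gene on the opposite strand. Among those described here these are Col4a1, Col4a2, Col4a3, Col4a5, Col4a6, Col5a1, Col5a3, Col6a6, Col9a3, Col12a1, Col14a1, Col15a1, Col18a1 and Col24a1. Fn1 stood at 39.0 CPM (29.0 to 51.2) in the control and 259 CPM (241 to 279) in the treated library, from 51 and 722 UMIs, a log2 ratio of 2.73 (2.32 to 3.17). It was the only one of the 49 genes with at least 100 UMIs there, and it was counted as higher, against 5.77% of all 5144 genes (6.92% were lower). Fn1 UMIs were found in 14 of 182 control cells (7.69%) and 139 of 457 treated cells (30.4%). After thinning to 1000 UMIs the shares were 2.92% (0.956 to 6.69) and 16.5% (13.1 to 20.4), beside 0.586% and 0.608% of T or NK cells. In the same cells Krt8 stood at 1.64% and 1.95% of its hepatoma level, against 9.58% and 71.4% for Fn1. Under the other settings tried the log2 ratio lay between 2.28 and 3.16.

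Monocytes or macrophages were split by Arg1, the arginase of alternatively activated macrophages. This split, and one by C1q genes (complement C1q, made by mature macrophages), was chosen after seeing the data. Cells with an Arg1 UMI made up 17% of control and 42.5% of treated monocytes or macrophages (31 and 194 cells). In these cells Fn1 stood at 17.3 CPM (6.94 to 35.5) and 403 CPM (370 to 437), but the 7 control UMIs came from 1 cell. In cells without an Arg1 UMI it stood at 48.7 CPM (35.4 to 65.4) and 105 CPM (88.5 to 124). With a C1q UMI the levels were 6.6 CPM (2.42 to 14.4) and 187 CPM (167 to 208), and without one 112.5 CPM (82.1 to 151) and 392.4 CPM (354 to 434). Within the treated library the cells with Arg1 and those without C1q were not separated by their intervals. Cells with an Arg1 UMI were also deeper (median 11585 and 5876.5 UMIs) than those without (4732 and 3697 UMIs), and the part of depth in the split was not tested. The treated library was higher in all 4 groups of cells, and the intervals of the 2 libraries did not overlap in any of them. These groups are 2 splits of the same cells and not separate checks. Control Fn1 UMIs came from 13 cells without an Arg1 UMI, 6 with a C1q UMI and 8 without one. A single control cell held up to 15 of them. A further 591 control and 783 treated immune cells that met no subset gate also held Fn1, at 15.3 CPM (11.7 to 19.6) and 81.3 CPM (73.6 to 89.6).

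**Figure D5:**
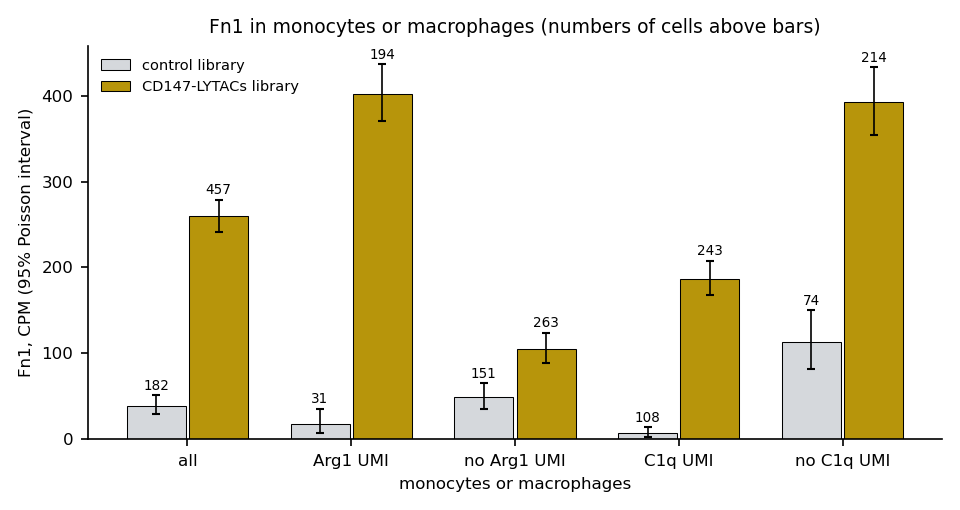
Fn1 level (y axis, CPM from 0, bars, with 95% Poisson intervals) in all monocytes or macrophages and in those with or without an Arg1 or a C1q UMI, control in grey and CD147-LYTACs in gold, with the number of cells above each bar. In each pair the treated bar is the higher, 259 against 39.0 CPM over all cells.

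In T or NK cells 2 of the 49 genes reached 100 UMIs, and Fn1 was counted as higher (4.49 and 8.53 CPM, log2 ratio 0.92, 0.59 to 1.26), against 3.81% of all 11084 genes (0.92% were lower). The log2 ratio was -0.089 when the rate of doublet removal was raised to 1.6% per 1000 barcodes and -0.27 with classes from clusters, and it was below 1.5-fold with gate cuts 1.5 times as high (0.58) or at most 10% mitochondrial UMIs (0.52), so the T or NK difference depended on which barcodes were admitted. Taken over all immune cells, 7 genes reached 100 UMIs. Of these 4 were counted as higher and 0 as lower, against 9.61% and 3.29% of all 12248 genes. They were Fn1 (7.13 and 39.1 CPM), Col4a2 (0.648 and 2.89 CPM), Col15a1 (2.36 and 4.13 CPM) and Dcn (1.74 and 2.72 CPM). Col4a2, with 22 and 100 UMIs, met the minimum through the treated library. Col15a1 was lower in treated neutrophils (96.3 and 15.9 CPM). Its ratio intervals in T or NK cells and in monocytes or macrophages included no difference. Dcn stood at 1.69 and 1.93 CPM in T or NK cells, where its share of the hepatoma level was below that of Krt8. The count of 4 is thus not read as a result about the set. Neutrophils made up 1.91% of kept control and 16% of kept treated barcodes, so the mix of immune subsets moved with the levels over all immune cells. Its part in them was not tested.

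Neutrophils held small but distinct collagen signals. None of the 49 genes reached 100 UMIs, where 6.18% of all 3530 genes were counted as higher and 12.3% as lower. Col15a1, a basement membrane chain that gives rise to restin, had 33 UMIs in 23 of 128 control neutrophils (96.3 CPM, 66.3 to 135) and 58 UMIs in 50 of 1221 treated ones (15.9 CPM, 12.1 to 20.5). It was lower in the treated library, with intervals that did not overlap. In hepatoma cells Col15a1 stood at 0.265 and 0.242 CPM. Immune cells held 52.6% and 59.3% of all Col15a1 UMIs. Col4a2 had 4 UMIs (11.7 CPM, 3.18 to 29.9) and 59 UMIs (16.2 CPM, 12.3 to 20.8), which did not differ beyond counting error, and its partner Col4a1 had 0 and 7. Col4a1 was 10.6% (4.37 to 20.6) of the pair's UMIs in treated neutrophils against 58.3% in treated hepatoma cells. Neutrophil Col4a2 stood at 27.7% and 37.8% of its hepatoma level, and Krt8 at 2.36% and 2.26%. Fn1 (11.7 and 7.12 CPM) and Col20a1 (14.6 and 1.37 CPM, from 5 UMIs in each library) were the other neutrophil genes at 10 CPM or more. Conventional dendritic cells held Col27a1 in 3 of 45 and 6 of 41 cells (7.45 and 39.0 CPM, from 5 and 16 UMIs). In plasmacytoid dendritic, B or plasma and mast cells no gene of the set had more than 5 UMIs over both libraries. Those at 10 CPM or more there were Fn1, Col15a1, Col6a3, Col4a4 and Col11a2, each from 3 UMIs or fewer in a library.

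The machinery that builds collagen was compared through 5 lists of genes. Their counts are to be read against the shares of all genes given above for each class. Of 21 genes for collagen synthesis, hydroxylation and folding, 7 had 100 UMIs in fibroblasts, with 1 higher and 1 lower, against 12.3% and 14.9% of all genes. Serpinh1, the collagen chaperone HSP47, stood at 698 and 853 CPM (log2 ratio 0.29, 0.06 to 0.53). Ppib, the prolyl isomerase cyclophilin B, was higher (313 and 486 CPM, 0.64), and Plod2, which hydroxylates lysines of collagen telopeptides, was lower (287 and 177 CPM, -0.70). The list's median log2 ratio was 0.22, against 0.00 for all genes tested. In hepatoma cells 13 of the 21 were tested and none passed, with P4hb, a subunit of prolyl 4-hydroxylase, at 327 and 317 CPM and Ppib at 205 and 234 CPM. In monocytes or macrophages 8 were tested and none passed, with P4hb at 243 and 285 CPM and Ppib at 166 and 175 CPM.

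Of 13 genes for procollagen processing and cross-linking, 7 were tested in fibroblasts. Lox, lysyl oxidase, which starts the cross-links between collagen molecules, was higher (240 and 407 CPM, log2 ratio 0.76, 0.38 to 1.16), with UMIs in 9 of 21 and 25 of 36 cells. Pcolce2, an enhancer of the procollagen C-proteinase, was lower (291 and 111 CPM, -1.39, -1.88 to -0.92). The related Pcolce (347 and 376 CPM) and Loxl1 (329 and 386 CPM) did not differ beyond counting error. Hepatoma cells expressed Pcolce too, at 366 and 379 CPM, and the transglutaminase Tgm2, at 69.6 and 66.1 CPM. Of 10 tested genes only Loxl1 was counted, as lower (1.07 and 0.201 CPM, -2.41, -3.18 to -1.71). Tgm2 was the 1 gene tested in monocytes or macrophages and did not pass (511 and 465 CPM). Of 15 basement membrane partners none of 6 passed in fibroblasts, where Nid1, which links laminin to type IV collagen, stood at 588 and 493 CPM and the laminin chain Lama2 at 310 and 232 CPM. None of 9 passed in hepatoma cells, where the laminin chains Lamc1 and Lama5 stood at 157 and 140 CPM and at 89.2 and 83.5 CPM. The 1 tested in monocytes or macrophages, Lamc1, was higher (34.4 and 66.4 CPM, 0.95, 0.47 to 1.45), whereas over all immune cells Lamc1 and Nid1 were counted as lower.

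Of 18 collagen and fibronectin receptors, 6 were tested in fibroblasts and none passed, with Cd44 at 1254 and 1014 CPM and Itgb1, the integrin beta 1 chain, at 546 and 648 CPM. In hepatoma cells 16 were tested. Cd44 (678 and 657 CPM) and Itgb1 (552 and 512 CPM) were below 1.5-fold, and only Itga11, a chain of a collagen-binding integrin, was higher (0.828 and 1.40 CPM, 0.76). In monocytes or macrophages 10 were tested, with 3 higher and 1 lower, against 5.77% and 6.92% of all genes. Itga1, a chain of a collagen receptor, was higher (11.5 and 43.5 CPM, log2 ratio 1.92, 1.14 to 2.80), as were Itga5, the fibronectin receptor chain (121 and 200 CPM, 0.73), and Sdc1, syndecan 1 (102 and 161 CPM, 0.65). Itga4, whose integrins bind VCAM1 and an alternative segment of fibronectin, was lower (113 and 74.7 CPM, -0.60). Cd44 in these cells stood at 1355 and 1376 CPM and Sdc4, syndecan 4, at 483 and 544 CPM. Of 14 small leucine-rich proteoglycans and matricellular relatives, 3 were tested in fibroblasts and 2 in hepatoma cells and none passed. In fibroblasts the follistatin-like Fstl1 stood at 1728 and 1518 CPM and asporin (Aspn) at 366 and 414 CPM. In hepatoma cells Podn (podocan) stood at 3.30 and 3.07 CPM and Smoc1 at 0.839 and 0.785 CPM. In T or NK cells Itga5, Sdc1, Sdc4 and Mrc1 of 12 tested receptors, and Tgm2, were counted as higher and Nid1 as lower. There 3.81% of all genes were counted as higher and 0.92% as lower. Mrc1 is a macrophage gene and a marker of the monocyte or macrophage gate. It stood at 0.774 and 10.6 CPM in the T or NK class. In neutrophils Itgav was counted as higher and Tgm2 as lower, against 6.18% and 12.3% of all genes. Over all immune cells, whose mix of subsets differed, 6 of 14 tested receptors (Itga5, Lair1, Cd44, Sdc1, Sdc4 and Mrc1), Tgm2, Tmem38b and Creb3l1 were counted as higher. Of all genes 9.61% were counted as higher there.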

How the data were processed

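The 2 droplet libraries, control and CD147-LYTACs, were analysed from the deposited UMI counts, which the authors left as raw whole numbers. Cell Ranger is named as 3.0.2 on mm10 per the submitters' processing notes and as 7.1.0 per the file headers. Barcodes were kept with at least 500 UMIs, 300 genes and at most 15% mitochondrial UMIs. Scrublet's own threshold marked 1 control and 134 treated barcodes as doublets, so the highest scores were removed at 0.8% per 1000 barcodes (402 control, 535 treated). Classes came from summed marker UMIs per 10000: at least 20 for hepatoma, 7 for immune, and 15 with 3 distinct markers for fibroblast or mural. These cuts were set on marker distributions after seeing the data. Within 1.5 times of the cut lay 143 barcodes below and 181 above for hepatoma, 69 and 72 for immune, and 18 and 6 for fibroblast or mural. UMIs were summed per class. CPM carry exact Poisson intervals, ratios exact conditional binomial and shares Clopper-Pearson intervals, with a count of 0 bounded at 3. Genes of the set were named if they had 10 CPM in a class (the 20 with most UMIs in fibroblasts and in hepatoma cells, 6 in an immune subset) or were counted as differing, and pathway genes if they were the 2 with most UMIs of a list or the counted ones with the greatest and smallest ratio. A few others were added after their values were seen. The members and lists were chosen with earlier results of these data known. Alternatives to the gates, doublet rate, mitochondrial limit, scaling, UMI minimum and fold are given in the closing section. The calling rule was tested on simulated class totals without spread among cells, so that test does not cover differences that rest on single cells. Positions follow GENCODE M21 (all 49 identifiers matched). Python 3.11.15, scipy 1.17.1 and scanpy 1.11.5 were used.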

Additional observations from a re-analysis of the deposited data

Results flagged for a closer look

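The Col8a1 log2 ratio of the treated over the control library was 1.01 in fibroblast or mural cells and -0.52 in hepatoma cells. The difference between the classes was not tested, as each group was 1 library. Of the 178 UMIs in treated fibroblasts 134 lay in 1 cell, and without the top cell of each library the fibroblast log2 ratio was 0.46. With gate cuts lowered to 0.67 times it was -1.58, the direction seen in hepatoma cells.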

How the results depend on the processing

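No paired analysis was possible because each group was 1 library and no test was made. The log2 ratios of Dcn and Col8a1 in hepatoma cells and of Fn1 in monocytes or macrophages kept their direction and their side of 1.5-fold in all 30 recomputations. Of 244 recomputed values of the other named ratios, 8 lost and 4 gained the 1.5-fold call and 4 called ones changed sign. The cause of the changes below was not tested unless the setting itself gives it. Of the ratios that were counted as differing, the direction turned for Col1a1 in hepatoma cells (-0.23, cuts 1.5 times as high), Col8a1 in fibroblasts (-1.58, cuts lowered to 0.67 times) and Fn1 in T or NK cells (-0.089 with 1.6% per 1000 barcodes removed, -0.27 with classes from clusters). Small ratios short of 1.5-fold crossed 0 as well, with ranges in fibroblasts of -0.32 to 0.21 for Sparc, -0.65 to 0.42 for Bgn, -0.13 to 0.52 for Col1a2 and -0.085 to 0.46 for Col3a1, and of -0.089 to 0.055 for Col27a1 in hepatoma cells. Clusters gave 340 control and 1011 treated monocytes or macrophages. Collagen CPM in control fibroblasts was 24160 with higher cuts, 22408 with clusters and 20204 as a mean over cells. In treated fibroblasts it was 23727 with lower cuts, 25056 without doublet removal, 29913 at 1.6%, 25718 at 25% mitochondrial UMIs, 25725 as a mean over cells and 26797 without mural cells. In control hepatoma cells it was 221 with higher cuts and 222 at 1.6%. Fibroblast genes counted as higher numbered 1 with lower cuts or a 2-fold rule and 5 at 20 UMIs or no minimum, and 1 was lower at 2-fold. In hepatoma cells 0 were higher with higher cuts or 2-fold, 4 at 20 UMIs and 5 with no minimum, and 3 (higher cuts) or 2 (20 UMIs, no minimum) were lower. In monocytes or macrophages 2 were lower with no minimum. Shares of cells with a UMI depend on depth. At 2000 UMIs and unthinned they were 28.1% and 75.1% (control) and 35.0% and 81.7% (treated) for hepatoma Dcn, 12.0% and 49.3%, then 8.30% and 44.0% for Col8a1, and 49.3% and 94.2%, then 45.5% and 95.2% for Fn1. For monocyte or macrophage Fn1 they were 8% and 7.69%, then 21.7% and 30.4%. That treated share was 12.2% with lower cuts and 11.7% with clusters. Settings without the top cell of each library, and the splits by Arg1 and C1q, were chosen after seeing the data. With 21 and 36 fibroblasts, single cells limit what fibroblast ratios can show.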
